A study of Mus musculus with 2 samples.

Results

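The chemokines that draw neutrophils into the lung, the receptors that read them and the growth factor axis that supplies the cells were followed across the lung cell classes of mice that had received tumor-conditioned or control media. The genes are 6 CXC chemokines (Cxcl1, Cxcl2, Cxcl3, Cxcl5, Cxcl12 and Cxcl15), the receptors Cxcr2 and Cxcr4, the cytokine Csf3 and its receptor Csf3r. They were taken by symbol from the gene list of the deposited matrices, which gave 10 of 32286 features. All 10 had counts in both libraries.

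The study asked how secreted factors of a breast tumor prepare the lung for metastasis. Its single-cell experiment profiled whole lungs of female BALB/c mice, 9 to 10 weeks old, after intravenous injections over 3 weeks. One group received tumor-conditioned media (TCM), made by keeping pieces of 4T1 primary breast tumors (a BALB/c mammary carcinoma line) for 72 h in DMEM without FBS, and the other received the same media incubated without tumor (CM). The labels name no genetic change in either group. Each group is 1 library made with the 5′ kit of 10x Genomics. How many mice went into a library was not given in the sources used here, and no difference below has a replicate check.

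CXC chemokines with the ELR motif, among them Cxcl1, Cxcl2, Cxcl3, Cxcl5 and Cxcl15, attract neutrophils through Cxcr2. Cxcl12 and its receptor Cxcr4 hold neutrophils in the bone marrow, and Csf3 (G-CSF) acting through Csf3r drives their production and release. In the lung, stromal cells, epithelium and macrophages make these ligands, while Cxcl15 (lungkine) is known as a product of the airway and alveolar epithelium.

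After filters on depth, genes and mitochondrial share, 7988 CM and 7707 TCM cells remained, with 25904686 and 26911117 UMIs (molecules counted after removal of PCR copies). Cells were put into classes by marker genes that include none of the 10, and cells that scored for more than one class were kept apart as mixed (1573 CM and 1148 TCM cells). Neutrophils made up 238 CM cells (2.98%) and 1397 TCM cells (18.1%), with a median of 1246 and 1551 UMIs per cell. Levels are UMIs per 100000 UMIs of the class (CP100k), and ratios are log2 of TCM over CM. Intervals of levels and ratios are exact 95% intervals that cover counting error of UMIs only, and not which cells or mice were sampled. An interval that leaves out 0 thus separates the pooled UMIs of these 2 libraries and not the 2 treatments. Where few cells hold most UMIs of a gene, the interval is too narrow for the cells of the class. Intervals of shares of cells are exact 95% binomial intervals that take cells as independent draws and leave out which mice were sampled. Shares whose intervals do not overlap thus separate the cells of these 2 libraries and not the 2 treatments. Droplets of at most 50 UMIs, which hold free RNA and no cell, served as background, and free RNA was estimated to add 124 UMIs to a cell of CM and 258 to a cell of TCM. The libraries shared 93 cell barcodes, 1.16% of the CM cells, and leaving those cells out moved none of the ratios of the leading classes beyond their intervals.

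Of the 10 genes, 5 lie within 147 kb of chromosome 5 (GRCm38.p6, GENCODE vM21), all on the plus strand, in the order Cxcl5 (chr5:90759360-90761624), Cxcl3 (chr5:90786103-90789600), Cxcl15 (chr5:90794534-90803067), Cxcl1 (chr5:90891241-90893115) and Cxcl2 (chr5:90903871-90905938). Cxcl12 lies on chromosome 6 (chr6:117168535-117181367), Cxcr2 (chr1:74153989-74161246) and Cxcr4 (chr1:128588199-128592293, minus strand) on chromosome 1, Csf3r on chromosome 4 (chr4:126024550-126044440) and Csf3 on chromosome 11 (chr11:98701263-98703629). Of the neighbours on chromosome 5, Cxcl2 and Cxcl3 were led by neutrophils, the named class with the most of their UMIs. Cxcl1 was led by fibroblasts, Cxcl15 by alveolar type II (AT2) cells and Cxcl5 by club cells.

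The 250 bases before the RefSeq start were at hand for 8 of the 10 genes. They were searched for GGAATTTCC on both strands, 9 letters of the type bound by NF-kB, the transcription factor whose p65 subunit the study examined in cancer cells. The letters were found before 3 of the 8 genes, Cxcl1, Cxcl2 and Cxcl3, against 0.286% of the 32851 windows of that length in the table. The 3 genes are neighbours on chromosome 5 with windows alike around the motif. They are thus not independent draws, and the difference in share was not tested. These 3 windows are shown, read along the gene, because the same letters stand before Cxcl1, led by fibroblasts, and before Cxcl2 and Cxcl3, both led by neutrophils. Capitals mark the motif, which begins 70, 96 and 72 bases before the start, and the windows are chr5:90890995-90891244, chr5:90903649-90903898 and chr5:90785851-90786100 (GRCm38.p6, plus strand).
Cxcl1: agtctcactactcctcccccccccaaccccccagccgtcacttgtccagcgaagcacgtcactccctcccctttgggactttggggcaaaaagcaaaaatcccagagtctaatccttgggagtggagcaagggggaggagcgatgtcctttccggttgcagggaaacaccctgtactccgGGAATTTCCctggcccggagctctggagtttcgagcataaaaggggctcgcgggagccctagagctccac
Cxcl2: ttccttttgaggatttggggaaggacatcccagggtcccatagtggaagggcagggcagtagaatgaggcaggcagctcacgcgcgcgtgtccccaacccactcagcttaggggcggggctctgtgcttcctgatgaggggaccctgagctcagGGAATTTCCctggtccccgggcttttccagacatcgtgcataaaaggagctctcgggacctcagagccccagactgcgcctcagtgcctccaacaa
Cxcl3: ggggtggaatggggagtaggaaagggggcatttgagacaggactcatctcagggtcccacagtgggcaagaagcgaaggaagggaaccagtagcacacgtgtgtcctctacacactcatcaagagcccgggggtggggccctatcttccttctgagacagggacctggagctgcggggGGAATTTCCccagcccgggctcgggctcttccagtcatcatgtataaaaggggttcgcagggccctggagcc
A match of letters is not a binding site, and its absence from the other 5 windows says nothing of those genes.

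Over all cells, the share of RNA from 4 of the genes was at least 2-fold higher in TCM, where 3.7% of 17241 genes with at least 10 UMIs were, and 0 were at least 2-fold lower, where 3.24% of genes were. The median log2 ratio was 0.64 over the 10 genes and −0.05 over all genes. Cxcr2 went from 372 UMIs in CM to 4145 in TCM (log2 ratio 3.42, 3.27 to 3.58). Cxcl3 went from 186 to 2374 UMIs (3.62, 3.40 to 3.84), Csf3r from 712 to 4482 (2.60, 2.48 to 2.72) and Cxcl2 from 7877 to 27180 (1.73, 1.70 to 1.77). All 4 were led by neutrophils, which were more frequent in TCM, as were classical monocytes (0.714% and 2.57% of cells). Cxcl1 was lower, with 2065 and 1689 UMIs (−0.34, −0.44 to −0.25), as was Cxcl5 with 78 and 43 (−0.91, −1.49 to −0.36). Cxcl15 (17708 and 22414 UMIs, 0.29, 0.26 to 0.31) and Cxcl12 (8924 and 10536, 0.18, 0.14 to 0.23) were slightly higher. Cxcr4 did not differ beyond counting error, with 1114 and 1163 UMIs (0.01, −0.11 to 0.13). Csf3 had 13 and 27 UMIs in all (0.9995, −0.0047 to 2.08), too few to separate the libraries.

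**Figure D1:**
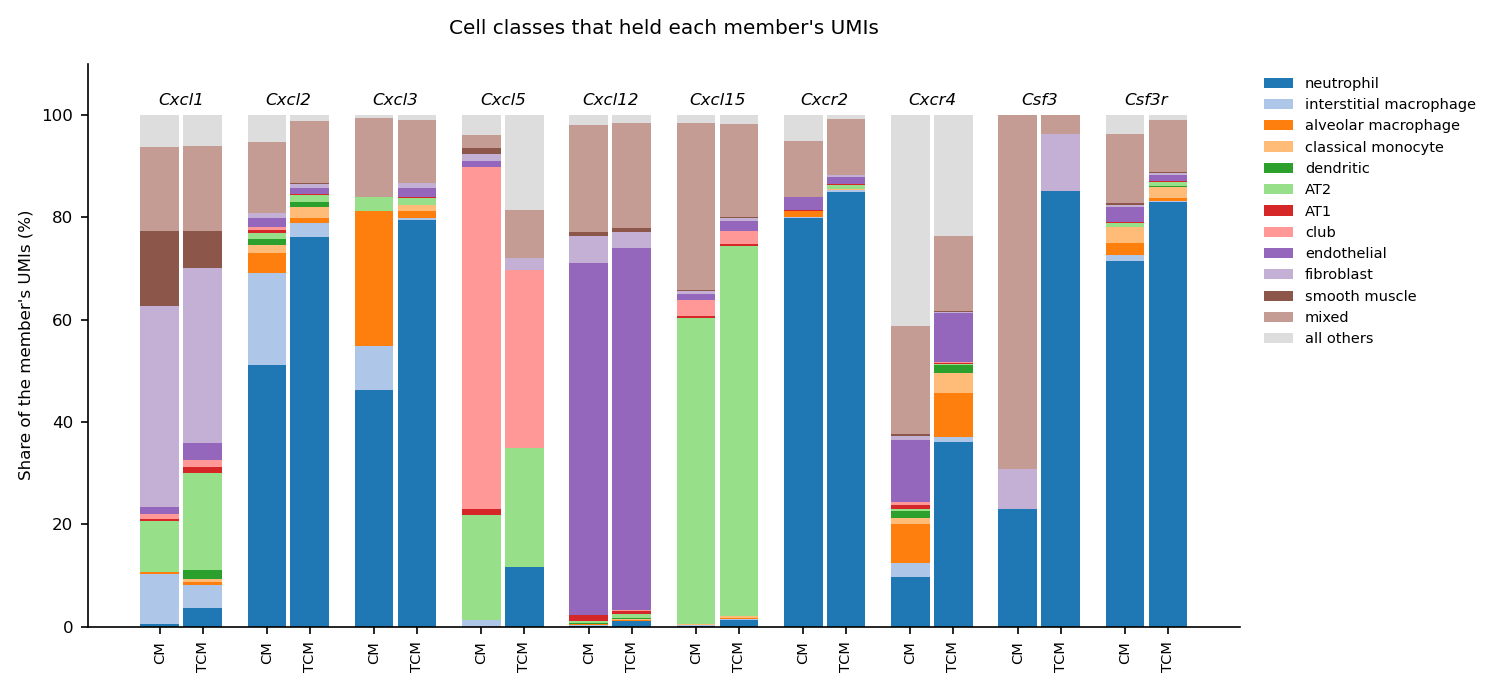
Stacked bars give, for each gene and library (CM left, TCM right), the percent of its UMIs found in each cell class. Neutrophils held 51.1% of Cxcl2 UMIs in CM and 76.1% in TCM, while Cxcl12 stayed with endothelial cells and Cxcl15 with AT2 cells. The Csf3 bars rest on 13 and 27 UMIs and the Cxcl5 bars on 78 and 43.

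To see how much of these ratios went with the number of cells of each class, the TCM level of each class was weighted by the share of UMIs that the class had in CM, with mixed and unassigned cells as classes of their own. At that makeup the log2 ratio was 0.31 for Cxcl2 instead of 1.73, 2.09 for Cxcl3 instead of 3.62, 1.73 for Cxcr2 instead of 3.42 and 0.90 for Csf3r instead of 2.60. For Cxcr4 it was −0.23 instead of 0.01. The values at CM makeup still hold the mixed cells, in which neutrophil RNA was more frequent in TCM: Cxcr2 there went from 41 to 449 UMIs.

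**Figure D2:**
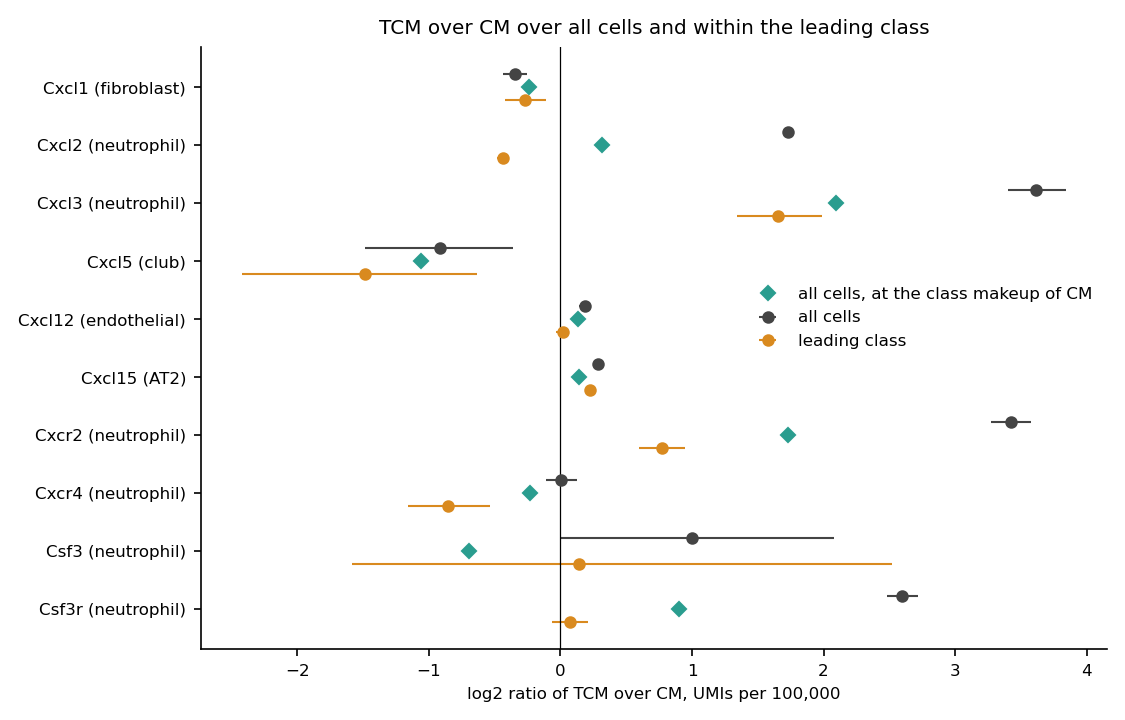
The horizontal axis gives the log2 ratio of TCM over CM for each gene, over all cells (grey), over all cells at the class makeup of CM (diamonds) and within the leading class named on the vertical axis (orange), with exact 95% intervals for counting error. Cxcl2 lies at 1.73 over all cells and at −0.44 within neutrophils, and Csf3r at 2.60 and 0.07.

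Among the ligands, Cxcl2 (MIP-2) was found in most neutrophils, and within them its level was lower in TCM. Neutrophils held 4026 Cxcl2 UMIs in CM and 20685 in TCM, or 1194 and 882 CP100k (log2 ratio −0.44, −0.49 to −0.39). After each cell was thinned to 1000 UMIs, 86.5% of CM (80.3 to 91.3%) and 88.5% of TCM neutrophils (86.4 to 90.3%) had a Cxcl2 UMI, shares whose intervals overlap. The median neutrophil stood at 94.3 UMIs per 10000 in CM and 63.4 in TCM, and the 90th percentile at 312 and 201. Cxcl2 was thus lower per neutrophil and higher in the lung as a whole.

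In neutrophils the median log2 ratio over genes lay below 0, which bears on every ratio within that class. Among genes with UMIs in both libraries and at least 10 in all, it was −0.22. The same median was within 0.04 of 0 in interstitial macrophages, endothelial cells, fibroblasts and AT2 cells and 0.11 in alveolar macrophages. CM neutrophils held 337119 UMIs and TCM neutrophils 2345789, so scarce genes enter this median only where CM caught them. How much of the −0.22 comes from that was not tested. Relative to that median, Cxcl2 stood at −0.22, Cxcl3 at 1.88, Cxcr2 at 0.99, Cxcr4 at −0.63 and Csf3r at 0.29. Of 9 members with at least 10 UMIs in neutrophils, 1 was past 2-fold higher (Cxcl3) and 0 past 2-fold lower, where 8.05% and 16.1% of the genes of the class were. With that median taken off, 12.0% of genes were past 2-fold higher and 10.1% past 2-fold lower. Without scaling, among genes with at least 50 UMIs, 7.01% were past 2-fold higher and 7.89% past 2-fold lower.

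Free RNA set a floor for shares of cells with a UMI, read in T cells, which should lack most of these genes and had a median depth of 2427 UMIs in CM and 2295 in TCM. After thinning, 0.372% of 538 CM and 4.59% of 414 TCM T cells had a Cxcl2 UMI. Cxcr2 was found in 0 of 538 CM T cells (exact interval up to 0.683%) and in 0.725% of those of TCM, Csf3r in 0.186% and 0.966%, and Cxcl3 in 0 of 538 and 0.483%. For Cxcr4, which T cells use, fibroblasts gave 0.485% and 0.184%. The shares of neutrophils given here for these genes lie above all of these.

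Outside neutrophils, macrophages, monocytes, dendritic cells and AT2 cells also held Cxcl2, as did the few ILC2 (27 and 19 cells, 39 and 41 UMIs). Interstitial macrophages, the C1q-positive macrophages of the lung tissue, had 1410 UMIs in 99 CM cells and 756 in 88 TCM cells, or 319 and 183 CP100k (−0.80, −0.93 to −0.67). With mixed cells kept this ratio was −0.36, and without the 10 highest cells of each library −1.28. Alveolar macrophages had 25.3 and 16.6 CP100k (−0.61, −0.85 to −0.36), and their ratio was −1.41 with thinned cells, −1.11 as a mean over cells and −0.89 with free RNA subtracted. Classical monocytes had 49.7 and 59.6 CP100k (0.26, −0.02 to 0.55), which did not separate the libraries, and their ratio ran from −0.62 with thinned cells to 2.08 without the 10 highest cells of each library. Both macrophage classes and neutrophils were lower in TCM, and each interval leaves out 0.

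Dendritic cells went the other way, from 85 to 288 Cxcl2 UMIs, or 17.1 and 44.1 CP100k (1.37, 1.02 to 1.74). AT2 cells went from 90 to 365 UMIs (6.93 and 21.5 CP100k, 1.64, 1.30 to 1.98). In AT2 cells of TCM, 156 of the 365 UMIs lay in 5 cells that also held at least 20 UMIs of the neutrophil markers S100a8, S100a9, Retnlg and Il1r2, and without such cells the log2 ratio was 0.90. AT2 cells also differed in depth, with a median of 1857 UMIs per cell in CM and 5424 in TCM. Smooth muscle cells had 6 and 58 UMIs (3.17, 1.96 to 4.68), and 1.07 without such cells, whereas dendritic cells stood at 1.42 without them. T cells, which should lack the gene, had 9 and 69 UMIs where free RNA alone predicts 21.9 and 92.4. Endothelial cells had 321 UMIs in TCM against 283 predicted from free RNA, so their rise from 146 is not read as expression.

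Cxcl3, a close relative of Cxcl2 with the same receptor, showed the highest ratio of any of the genes within neutrophils. It went from 86 UMIs in 20 of 238 CM cells to 1886 UMIs in 402 of 1397 TCM cells, or 25.5 and 80.4 CP100k (1.66, 1.34 to 1.99). Thinned shares were 7.98% (4.31 to 13.3%) and 26.5% (23.9 to 29.2%). In CM, 10 cells held 84.9% of the UMIs, and without the 10 highest cells of each library the log2 ratio was 4.08. In TCM neutrophils Cxcl3 was found mainly beside Cxcl2: 28.2% of thinned cells with a Cxcl2 UMI had one of Cxcl3, and 13.5% of cells without. Alveolar macrophages had 49 and 31 UMIs of Cxcl3 (−0.87, −1.57 to −0.19), the opposite direction. Interstitial macrophages had 16 and 10.

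**Figure D3:**
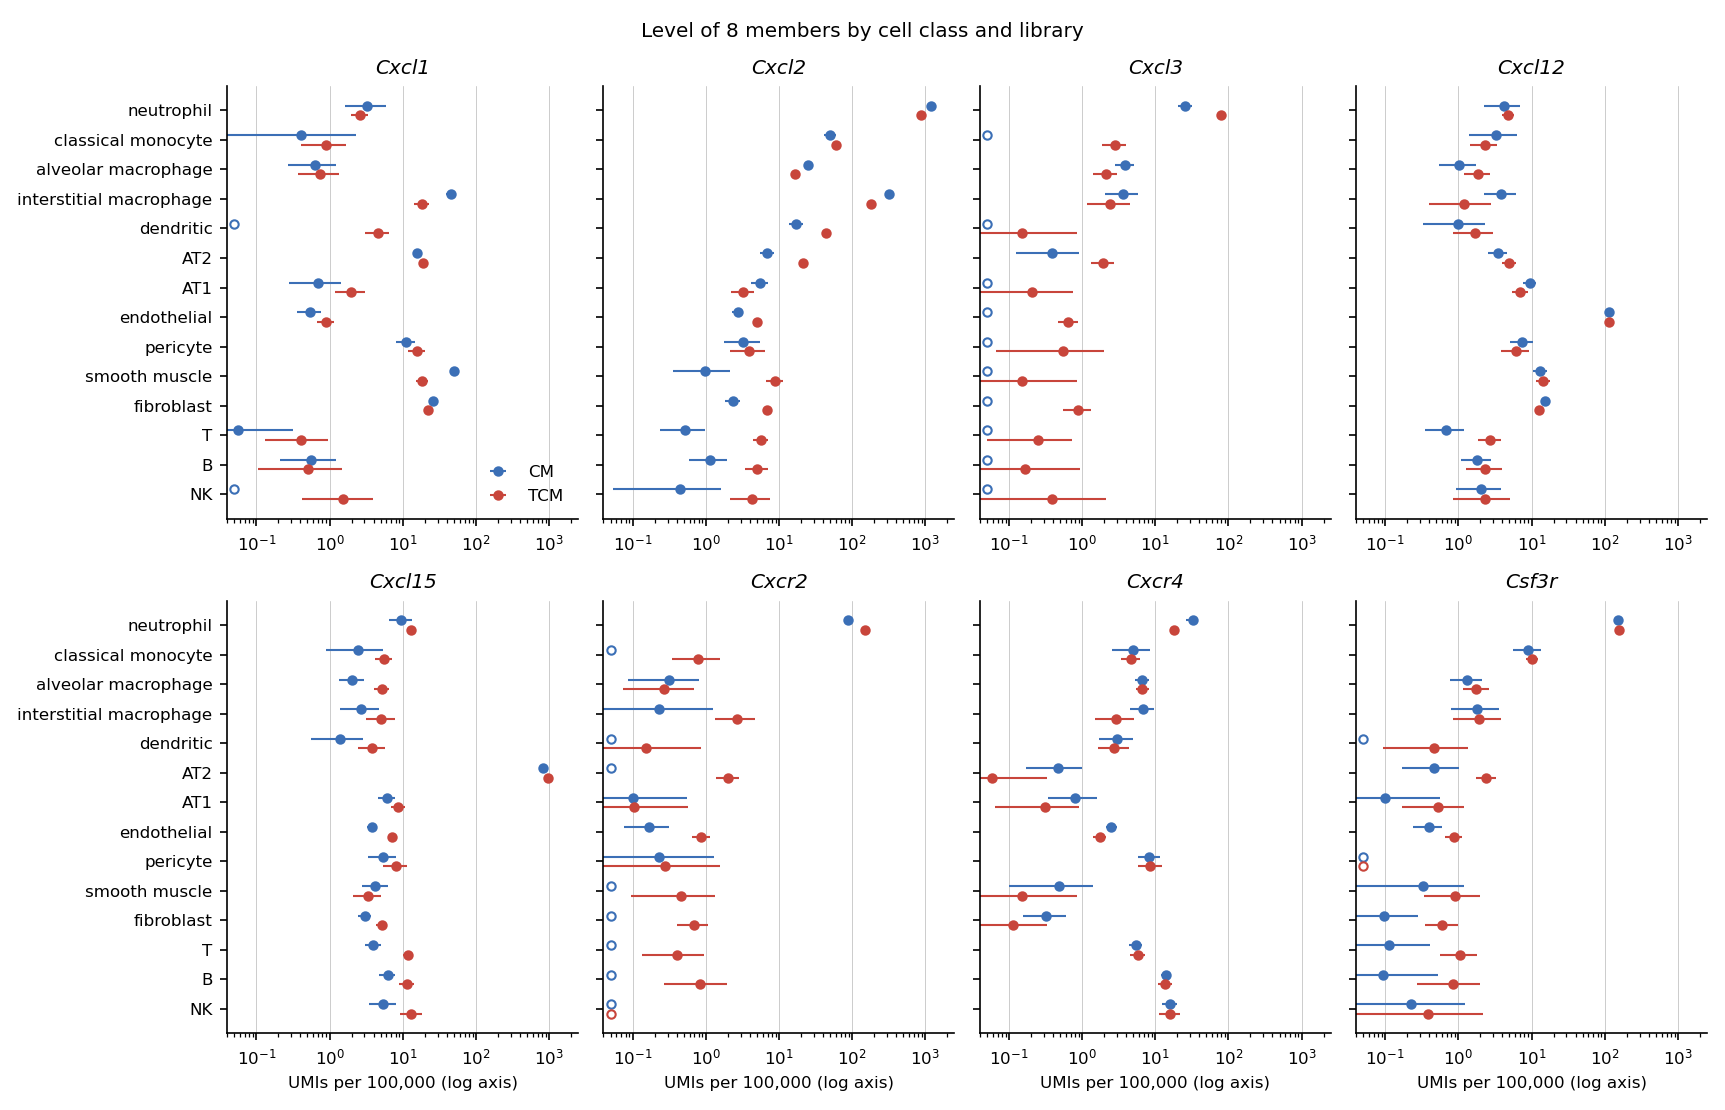
Each panel gives 1 gene, with the level in UMIs per 100000 on a log axis and the classes that held 50 or more cells of both libraries on the vertical axis. Points are CM (blue) and TCM (red) with exact 95% Poisson intervals, and open circles at the left edge mark classes with 0 UMIs. Cxcl2 spans the range from 1194 CP100k in CM neutrophils to below 1 in T and NK cells of CM (5.66 and 4.25 in those of TCM), while Cxcl15, Cxcl12 and Cxcr2 each have a single high class.

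Cxcl1 (KC) came mainly from stromal cells. By pooled UMIs it was lower in TCM in fibroblasts, smooth muscle and interstitial macrophages, though in fibroblasts the direction turned with the way cells were weighted. Fibroblasts held 810 UMIs in 764 CM cells and 578 in 595 TCM cells, or 26.3 and 21.9 CP100k (−0.27, −0.42 to −0.11). The UMIs were concentrated in few cells: 93 CM and 76 TCM fibroblasts carried any, and 12 and 9 cells held 50% of them. The direction depended on this. As a mean over cells the log2 ratio was 0.13, and with cells thinned to 1000 UMIs it was 0.08, while without the 10 highest cells of each library it was −0.52.

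Within fibroblasts, the adventitial cells that surround vessels and airways had the most Cxcl1, with 249 and 130 UMIs or 71.2 and 50.1 CP100k (−0.51, −0.83 to −0.20). Alveolar fibroblasts had 20.2 and 14.4 CP100k (−0.49, −0.70 to −0.28). The remaining fibroblasts, 63 and 49 cells, went from 74 to 137 UMIs (1.38, 0.96 to 1.80).

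Smooth muscle cells went from 305 to 122 Cxcl1 UMIs, or 49.7 and 18.6 CP100k (−1.42, −1.74 to −1.12), with 32 of 164 and 22 of 114 cells carrying any. Of the 4 members with at least 10 UMIs in smooth muscle, 1 was past 2-fold higher (Cxcl2) and 1 past 2-fold lower (Cxcl1), where 5.72% and 4% of genes were. In CM, 10 smooth muscle cells held 85.6% of the Cxcl1 UMIs, and without the 10 highest cells of each library the ratio was −0.89.

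Interstitial macrophages went from 202 to 75 Cxcl1 UMIs, or 45.7 and 18.2 CP100k (−1.33, −1.73 to −0.94). Without the 10 highest cells of each library the ratio was −4.85. Of the 8 members tested in interstitial macrophages, 3 were past 2-fold lower (Cxcl1, Cxcl12 and Cxcr4), where 6.39% of genes were, and 1 was past 2-fold higher (Cxcr2, 1 and 11 UMIs), where 6.69% were. Of the 11 Cxcr2 UMIs, 10 lay in 1 cell rich in neutrophil markers. When classes came from clusters instead of the marker gate, the Cxcl1 ratio of interstitial macrophages was −0.71 and that of Cxcl2 −0.39.

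AT2 cells, which among the named classes held the most Cxcl1 after fibroblasts, had 206 and 321 UMIs or 15.9 and 18.9 CP100k (0.26, −0.0018 to 0.51), and 46 of 349 and 43 of 306 cells carrying any. The ratio was 0.92 with cells thinned to 1000 UMIs and 0.84 without the 10 highest cells of each library. Endothelial cells, with 29 and 57 UMIs (0.71, 0.04 to 1.41), and dendritic cells, with 0 and 30, also stood higher. Of 8 members tested in AT2 cells, 4 were past 2-fold higher (Cxcl2, Cxcl3, Cxcr2 and Csf3r), where 4.48% of genes were, and 1 past 2-fold lower (Cxcl5, 16 and 10 UMIs), where 5.18% were. Neutrophils lead all 4 of these genes, and they also lead Cxcr4, which had 6 and 1 UMIs in AT2 cells, and Csf3, which had 0 in both. In TCM AT2 cells, 27 of 34 Cxcr2 UMIs and 34 of 41 Csf3r UMIs lay in 8 cells with at least 20 UMIs of the neutrophil markers, against 0 and 5 UMIs in such cells of CM.

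Among the named classes, Cxcl15 was almost wholly epithelial. AT2 cells held 10602 UMIs in CM and 16203 in TCM, or 817 and 956 CP100k (0.23, 0.19 to 0.26), and 97.1% and 99.7% of thinned AT2 cells carried it. The median AT2 cell stood at 56.7 UMIs per 10000 in CM and 82.5 in TCM. Club cells, the secretory cells of the airway, had 135 and 160 CP100k in 52 and 44 cells (0.24, 0.07 to 0.41). Mixed cells held 5784 and 4092 UMIs against 205 and 269 that free RNA predicts, and AT1 cells held 61 and 84 against 33.4 and 53.7. Counts near the free RNA level were found in cells outside the epithelium. Neutrophils had 32 and 301 UMIs against 30.9 and 328 predicted, T cells 69 and 145 against 87.5 and 125, and fibroblasts 93 and 138 against 99.3 and 140. The log2 ratio of Cxcl15 in T cells (1.60, 1.17 to 2.03) thus compares counts at the level of free RNA.

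Cxcl5 (LIX) was scarce. Club cells held 52 UMIs in 10 of 52 CM cells and 15 UMIs in 5 of 44 TCM cells, or 12.3 and 4.39 CP100k (−1.49, −2.42 to −0.64), and AT2 cells held 16 UMIs in 4 cells and 10 in 2. These counts come from 10 and 5 club cells. Neutrophils had 0 UMIs in CM, which a true sum of up to 3 allows, and 5 in TCM.

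Cxcl12 (SDF-1), the ligand of Cxcr4, was made by endothelial cells, and the libraries did not separate there. They held 6142 UMIs in 1656 CM cells and 7455 in 1636 TCM cells, or 114 and 116 CP100k (0.02, −0.03 to 0.06). The thinned share was 42.7% in both libraries (40.0 to 45.4% and 40.1 to 45.3%). General capillary cells had 108 and 109 CP100k, and large vessel cells, 39 and 33 in number, had 409 and 481 (0.23, 0.06 to 0.41). Aerocytes, the large capillary cells of gas exchange, were low, with 22 and 70 UMIs or 4.82 and 12.5 CP100k (1.37, 0.66 to 2.13). Free RNA per cell was higher in TCM, and Cxcl12 in background droplets went from 34.1 to 56.8 CP100k. How much of the aerocyte ratio comes from free RNA was not tested. Fibroblasts had 15.2 and 12.5 CP100k (−0.28, −0.49 to −0.08), with adventitial cells the highest at 49.2 and 39.7 (−0.31, −0.68 to 0.05). Neutrophils had 14 and 113 UMIs against 10.1 and 205 predicted from free RNA.

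Among the receptors, Cxcr2 was found mainly in neutrophils, and its level in them was higher in TCM. They held 297 UMIs in CM and 3522 in TCM, which were 79.8% and 85% of all Cxcr2 UMIs, or 88.1 and 150 CP100k (0.77, 0.60 to 0.94). The thinned share of neutrophils with a UMI was 56.4% (48.5 to 64.2%) in CM and 72.8% (70.1 to 75.4%) in TCM, and these intervals do not overlap. Mixed cells held most of the rest, with 41 and 449 UMIs. Basophils had 16 and 10 UMIs, where free RNA predicts 0.049 and 0.485, and AT2 cells of TCM had 34 against 9.89. In the larger classes of TCM the counts stood near or below free RNA, with 56 UMIs in endothelial cells against 52.9 predicted, 18 in fibroblasts against 19.2 and 5 in T cells against 17.3. In background droplets Cxcr2 itself went from 1.72 to 12.5 CP100k. Cxcr2 and Csf3r, each frequent by itself, were found together in 58.2% of thinned TCM neutrophils and 44.2% of those of CM. In TCM, 80.0% of thinned neutrophils with a Cxcr2 UMI had one of Csf3r, and 71.0% of those without. In CM these shares were 78.3% and 62.0%.

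Cxcr4, the receptor that retains neutrophils in the marrow and rises as they age, went the other way in the same cells. Neutrophils held 109 UMIs in CM and 420 in TCM, or 32.3 and 17.9 CP100k (−0.85, −1.16 to −0.54). The thinned shares were 27.6% (20.9 to 35.1%) and 16.5% (14.3 to 18.8%), again with intervals that do not overlap. Unlike Cxcr2, Cxcr4 was found in lymphoid, myeloid and vascular classes. B cells had 14.2 and 13.6 CP100k (−0.06, −0.47 to 0.34), NK cells 15.9 and 15.8 (−0.01, −0.60 to 0.57) and T cells 5.48 and 5.75 (0.07, −0.40 to 0.53). Alveolar macrophages had 6.67 and 6.66 CP100k and pericytes 8.32 and 8.61, also with intervals that include 0. Endothelial cells had 2.50 and 1.74 CP100k (−0.52, −0.90 to −0.15) and interstitial macrophages 30 and 12 UMIs (−1.22, −2.32 to −0.21). Cxcr2 and Cxcr4 were not found apart. Of thinned TCM neutrophils with a Cxcr2 UMI, 17.5% also had one of Cxcr4, and of those without, 13.8% had one. In CM the thinned shares were 26.1% and 29.6%, from 24 and 21 cells with a Cxcr4 UMI. Without thinning they were 32.4% and 30.0%, so no order is read for CM.

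**Figure D4:**
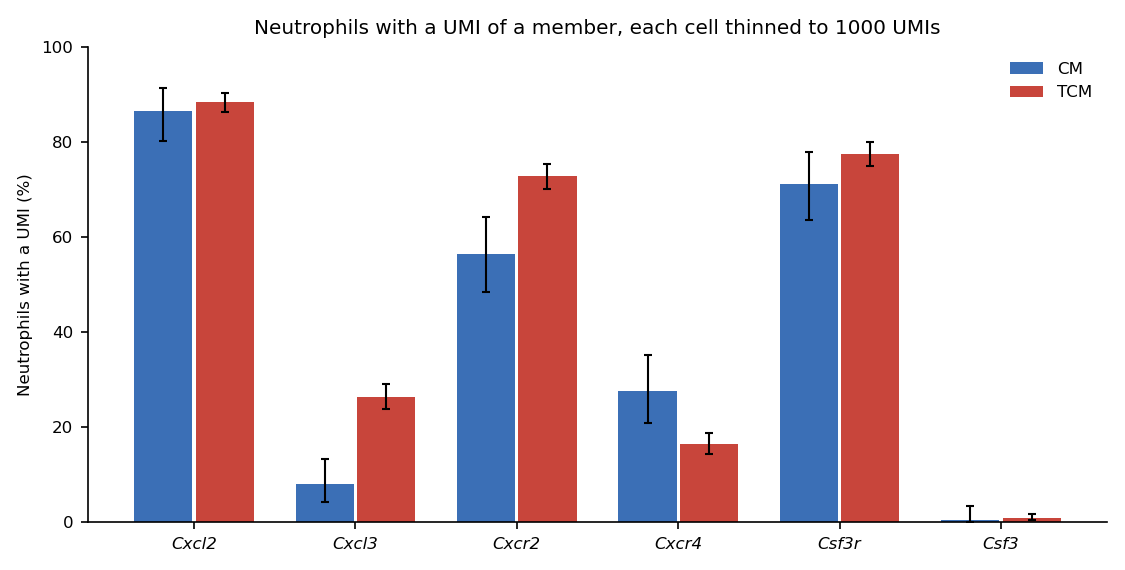
Bars give the percent of neutrophils with at least 1 UMI of each gene after every cell was thinned to 1000 UMIs (163 CM and 1092 TCM cells), with exact 95% binomial intervals. Cxcr2 and Cxcl3 were higher in TCM (72.8% against 56.4%, and 26.5% against 7.98%), Cxcr4 was lower (16.5% against 27.6%), and the intervals of Cxcl2, Csf3r and Csf3 overlap.

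Csf3r, the G-CSF receptor, did not separate the libraries within neutrophils. They held 509 UMIs in CM and 3716 in TCM, or 151 and 158 CP100k (0.07, −0.06 to 0.21), with thinned shares of 71.2% (63.6 to 78.0%) and 77.6% (74.97 to 80.0%). Classical monocytes had 8.97 and 10.2 CP100k (0.19, −0.48 to 0.93). Non-classical monocytes held 15 and 8 UMIs against 0.286 and 1.25 that free RNA predicts, and alveolar macrophages 17 and 26 against 1.11 and 10.3. Csf3 was near the limit of detection. Its 13 and 27 UMIs lay mainly in neutrophils (3 and 23), fibroblasts (1 and 3) and mixed cells (9 and 1), and background droplets held 0 and 1.

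The neutrophils of the libraries also differed in granule RNA, which marks younger cells. Of the CM neutrophils, 11 (4.62%) had at least 5 UMIs of Camp, Ltf and Ngp, and of the TCM neutrophils 8 (0.573%). Without those cells the neutrophil ratio was −0.55 for Cxcl2 and −0.11 for Csf3r, and those of the other genes stayed within their intervals.

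Other genes of the same pathways were taken from lists of 40 genes in 5 groups and are described over all cells first. Of 8 other CXC chemokines tested, 3 were past 2-fold lower over all cells and 0 higher, where 3.24% and 3.7% of all genes were, and their median log2 ratio was −0.79. Cxcl13, the B cell attractant, went from 631 to 81 UMIs, and in fibroblasts from 469 to 1. Cxcl10, an interferon-induced ligand of Cxcr3, went from 381 to 180 UMIs (−1.14, −1.40 to −0.88), also within endothelial cells (3.02 and 1.44 CP100k). Ppbp, a platelet chemokine, went from 73 to 35 UMIs (−1.12, −1.74 to −0.52). Of these, 54 and 13 lay in the platelet class, which held 5 CM and 3 TCM cells.

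Of 5 other receptors tested (median −0.57), Cxcr1, the second receptor of ELR chemokines, was past 2-fold higher with 46 and 107 UMIs (1.16, 0.65 to 1.69), and within neutrophils it had 2 and 67 UMIs. Its other class, alveolar macrophages, had 42 and 27. Cxcr6, a T cell receptor for Cxcl16, was past 2-fold lower with 276 and 125 UMIs. Of 6 colony-stimulating factor genes (median 0.68), Csf2rb, the shared chain of the receptors for GM-CSF, IL-3 and IL-5, was past 2-fold higher, and in neutrophils it went from 45.4 to 91.9 CP100k (1.02, 0.78 to 1.26).

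Among adhesion genes of neutrophil capture, Itgam, a subunit of Mac-1, was past 2-fold higher over all cells with 446 and 1311 UMIs (1.50, 1.34 to 1.66), while within neutrophils it stood at 25.2 and 24.3 CP100k (−0.05, −0.38 to 0.30). The selectin genes Sele and Selp were scarce. Sele had 10 and 79 UMIs in endothelial cells (2.72, 1.76 to 3.83) and Selp 51 and 96 (0.65, 0.14 to 1.17). Selp was not confined to endothelial cells, with 98 and 269 UMIs over all cells (1.40, 1.06 to 1.75). Cells of the neutrophil class held 5 and 122 of these (1.81, 0.55 to 3.46). Of 9 early NF-kB and cytokine genes (median 0.01), Il1b was past 2-fold higher over all cells. In neutrophils it was lower, at 1403 and 859 CP100k (−0.71, −0.75 to −0.66), the same pair of directions as Cxcl2. Nfkbia (0.19 over all cells, −0.62 in neutrophils) and Nfkbiz (0.46 and −0.67) had this pair too. Over the 7 genes of this list tested in neutrophils the median was −0.67, and Il17ra stood higher there (0.48).

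The genes most like each member in their levels across 37 class-by-library sums were looked up among 11880 genes. They are given as a description, since the sums share 2 libraries. Cxcl2 was most like Cd14 (r = 0.94), Nlrp3 (0.93) and Ptafr (0.92), genes of innate immune sensing. Cxcl3 was most like Il1rn, the interleukin-1 receptor antagonist (0.93). Cxcr2 was most like Asprv1 (0.98) and Cstdc5 (0.98), and Csf3r like Trem1 (0.96), which was itself a marker of the neutrophil class. Cxcl15 followed the surfactant protein genes Sftpa1 (0.99), Sftpb (0.97) and Sftpd (0.97), all markers of the AT2 class. Cxcl1 was most like Htra3 (0.84) and Cxcl12 like Ntn1 (0.92).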

How the data were processed

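Whole lungs were dissociated, and each library was sequenced and aligned to mm10 (GRCm38.p6) with Cell Ranger (version 4 per the file headers) by the authors, who deposited raw UMI counts for all 737280 barcodes per library without cell calls. Totals were 31944151 UMIs (CM) and 36648719 (TCM). Cells had at least 500 UMIs, 200 genes and at most 10% mitochondrial UMIs. Classes were set by marker scores after subtraction of free RNA: a cell took its highest class if that score reached 0.3 of the mean of the top 50 cells with at least 2 markers, and was mixed if the second score exceeded 0.6 of the first. Doublets were not called separately, and mixed cells stayed out of the classes. UMIs were summed per class and library, with exact Poisson and Clopper-Pearson intervals at 95% and conditional binomial intervals for ratios (scipy 1.17.1). With 1 library per group no test was run. A sum of 0 was set to 3 counts. Other genes were named where they passed 2-fold with at least 50 UMIs over all cells. For likeness, the 3 genes with the highest Pearson r of log2(CP100k + 1) were taken among genes with at least 200 UMIs, over sums of at least 50 cells. Scripts were tested on simulated data. Members and lists were chosen with earlier results of these data known. Alternative settings covered cell filters, mixed cells, free RNA, cell weighting, scaling and Leiden clusters (leidenalg 0.10.2). Left out were cells of classes under 50 cells in either library, except where their counts are named. Counts over the list of adhesion genes are not reported here.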

Additional observations from a re-analysis of the deposited data

Results flagged for a closer look

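For 3 ligands, cell classes moved in opposite directions between the libraries, each ratio with an interval that leaves out 0 and with at least 3 times the UMIs that free RNA predicts in both libraries. With 1 library per group the difference between classes was not tested. Cxcl1 had log2 ratios of 1.50 in alveolar type I cells (7 and 19 UMIs) and 0.71 in endothelial cells (29 and 57 UMIs), against −0.27 in fibroblasts, −1.33 in interstitial macrophages and −1.42 in smooth muscle cells. The fibroblast value turned to 0.13 as a mean over cells and 0.08 with thinned cells, so its direction is not settled. Cxcl2 had 1.64 in AT2 cells and 1.37 in dendritic cells, against −0.61 in alveolar macrophages, −0.80 in interstitial macrophages and −0.44 in neutrophils. Cxcl3 had 2.34 in AT2 cells (5 and 33 UMIs) and 1.66 in neutrophils, against −0.87 in alveolar macrophages. The AT2 values were 0.90 for Cxcl2 and 0.79 for Cxcl3 without cells rich in neutrophil markers, an alternative chosen after seeing the data.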

How the results depend on the processing

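No paired analysis was possible because each group is 1 library. Of 233 log2 ratios computed under alternatives, 180 stayed within the interval of the reported value, 51 left it without turning a called direction, and 2 reversed. The reversals were those of Cxcl1 in fibroblasts, at 0.13 as a mean over cells and 0.084 with thinned cells, and it was −0.52 without the 10 highest cells. Cxcl2 in neutrophils lay between −0.55 and −0.22: −0.38 with at least 1000 UMIs per cell, −0.34 with free RNA subtracted, −0.55 as a mean over cells, −0.49 thinned, −0.24 without the 10 highest cells, −0.22 scaled by the median ratio and −0.55 without cells with granule RNA. Cxcl3 in neutrophils was 2.31 thinned and 4.08 without the 10 highest cells. Cxcr2 in neutrophils was 0.99 when scaled. Csf3r in neutrophils was 0.29 when scaled and −0.11 without cells with granule RNA. Cxcl12 in endothelial cells was 0.07 with mixed cells kept. Cxcl15 in AT2 cells was 0.31 with at most 5% mitochondrial UMIs, 0.31 with mixed cells kept, 0.44 as a mean over cells, 0.30 thinned and 0.17 in clusters. Without the 10 highest cells, Cxcr4 in interstitial macrophages was −3.72 against −1.22, and with free RNA subtracted Cxcl12 in fibroblasts was −0.58 against −0.28.

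Over all cells, at least 1000 UMIs per cell gave 1.82 for Cxcl2 and 2.74 for Csf3r. Scaling by the median ratio gave 1.79 for Cxcl2, 0.24 for Cxcl12 and 0.34 for Cxcl15. Gated cells alone gave 1.67 for Cxcl2, 0.082 for Cxcl12, 0.46 for Cxcl15 and 2.53 for Csf3, of which gated cells held few UMIs.

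The share of genes past 2-fold depended on the count minimum. With at least 50 UMIs it was 1.26% lower over all cells, 0.943% higher and 1.29% lower in AT2 cells, 1.4% and 1.09% in interstitial macrophages, 7.89% lower in neutrophils, and 1.13% and 0.579% in smooth muscle. With no minimum it was 10.7% higher in interstitial macrophages, 26.1% lower in neutrophils and 6.63% lower in smooth muscle. A sum of 0 counts as 3, so a gene absent from CM neutrophils and scarce in those of TCM is called lower. Cxcr5, with 0 and 6 UMIs in neutrophils, thus stood at −1.80. The 26.1% holds such genes and is not a share of genes with lower expression. Scaling gave 10.1% lower in neutrophils.

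For Cxcl5 in club cells, thinning, leaving out 10 cells, scaling and clusters gave no value, and for Csf3 in neutrophils leaving out 10 cells gave none. The settings on shared barcodes, granule RNA, neutrophil markers and droplets of 51 to 200 UMIs were chosen after seeing the data. Depth limits Csf3, Cxcl5 and every gene in classes with few cells. The direction of a change in the mice cannot be told apart from a difference between 2 libraries.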
